A study of Mus musculus with 5 samples.

Results

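The Rab GTPases, the largest branch of the Ras superfamily of small GTPases, were examined in SLAMseq data of cardiac fibroblasts (CF). The members were the genes of the deposited tables whose symbol is Rab followed by a number with or without a letter or a further digit, so that their regulators and the Rab-like genes did not enter. This gave 59 members of 20365 gene names. The 59 members had 105 distinct intervals in the tables, 31 of them more than 1, and for each member the interval was kept whose CPM, averaged over the labeled libraries, was highest. CF came from healthy adult male C57Bl/6J wildtype mice, 10–12 weeks old, after Langendorff perfusion of the heart with collagenase, and were grown to confluency. In 3 libraries the cells were cultured for 12 h with 0.1 mM 4-thiouridine (S4U), and in 2 unlabeled libraries for 12 h without it. RNA of all 5 libraries was alkylated with iodoacetamide. The cells were cultured before labeling and 2 wells were pooled per sample, so the values describe cultured CF and not CF in the heart.

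Rab proteins are molecular switches that mark intracellular membranes. In the GTP-bound form they sit on a membrane and bind effectors (tethers, motor adaptors, lipid kinases) that bud, move, dock and fuse vesicles, and in the GDP-bound form they are taken off the membrane by a GDP dissociation inhibitor. Guanine nucleotide exchange factors (GEF) load GTP, GTPase-activating proteins (GAP) switch the protein off, and an escort protein presents new Rab proteins to the geranylgeranyl transferase that attaches their lipid anchor. In fibroblasts, which export large amounts of procollagen, Rab proteins of the endoplasmic reticulum (ER) and Golgi act along the secretory route, and endosomal Rab proteins sort integrins and growth factor receptors.

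In SLAMseq, S4U built into RNA during labeling is alkylated, and the sequencer then sees a C at such a T. The T>C conversion rate is the share of sequenced T bases in an interval (covered T positions) that appear as C. It measures how far the transcripts of a gene carry S4U after 12 h. Reads on 1 interval per gene amounted to 1576048, 1194971 and 506045 in labeled replicates 1, 2 and 3, and to 1843033 and 996143 in unlabeled replicates 1 and 2. The members held between 0.483 and 0.550% of these reads. The library-wide T>C rate lay between 0.0353 and 0.0358 in the labeled libraries and was 0.00111 and 0.000652 in the unlabeled ones. The libraries numbered 1 stood apart from the others in their read counts: the chi-square per degree of freedom between replicates was 16.6 and 11 for labeled replicate 1 against 2 and 3, 2.04 for labeled 2 against 3, and 16.1 for unlabeled 1 against 2. All 10 fibroblast markers checked had reads in every library, with a summed level of 41860.4 to 45415 CPM in labeled and 34215 to 37249 CPM in unlabeled libraries, whereas the 6 cardiomyocyte markers summed to at most 8.03 CPM with Ryr2 at 0. The 6 endothelial markers summed to 115 to 238 CPM and the 8 immune markers to 63.4 to 115 CPM, with Cd3e at 0. The 4 epicardial markers summed to 3.81 to 5.93 CPM in labeled and 0.543 to 1.00 CPM in unlabeled libraries (Msln and Krt19 at 0), and the 6 pericyte and smooth muscle markers 551 to 1634 CPM in labeled against 363 to 755 CPM in unlabeled libraries, nearly all of it Acta2. The study's isolation protocol for CF, written for operated mice, discards a first collagenase bath that takes off epicardial cells and removes CD31+ endothelial and CD45+ immune cells with magnetic beads. The part of remaining cells of other types in the values below was not tested.

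Newly made RNA was measured for all Rab genes with enough reads. Of the 59 members, 47 had a covered T in every library, and the T>C rate was raised in the labeled libraries in all 47 (beta-binomial test, unadjusted p below 0.05). Among all 11179 genes tested in this way 95.2% were raised, so the share of members called is near that of genes at large. Rab27a and Rab27b, which act in the docking of secretory lysosomes and exosome release, had between 1 and 10 reads in a labeled library. In both genes the rate was 0 in labeled replicate 2, as in the unlabeled libraries. Their calls did not hold without labeled replicate 1 or unlabeled replicate 1, and that of Rab27a not without labeled replicate 3. The remaining 12 members could not be tested. Rab3c, Rab9b, Rab17, Rab25, Rab33a, Rab37 and Rab44 had 0 reads in all 5 libraries, and Rab3b, Rab26, Rab38 and Rab39 had 1 read in all libraries together. Rab19 had 5. Most of these are known from neurons, epithelia, melanocytes or blood cells. A count of 0 allows a level of up to 5.93 CPM in the shallowest library and 1.63 CPM in the deepest, for counting error only.

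The T>C rate of single members was read where each library covered 1000 T positions or more, which left 14 members. Rab1a, which acts in transport from the ER to the Golgi, had the highest rate, with 0.050, 0.0507 and 0.0487 in labeled replicates 1, 2 and 3 and 0.00205 and 0.000872 in the unlabeled replicates (labeled mean 0.0498 ± 0.000995, SD, n = 3). Its labeled libraries differed little, and the rate was above that of 98.6% of the 2107 genes with the same coverage. Rab10, which acts in delivery of GLUT4 vesicles and in basement membrane secretion, followed with 0.0404, 0.0442 and 0.0561 (0.0469 ± 0.00817). Rab10 was thus among the lower members in replicate 1 and the highest of the 14 in replicate 3. Rab18, linked to ER and lipid droplet contacts, had 0.0426, 0.0440 and 0.0520 (0.0462 ± 0.00507), and Rab21, which takes up integrins into early endosomes, had 0.0477, 0.0396 and 0.0499 (0.0457 ± 0.00540). Rab11a, the recycling endosome Rab, had 0.0392, 0.050 and 0.0457 (0.0449 ± 0.00541). The replicate values of neighbours among these 5 members overlapped.

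At the lower end, Rab34, which acts at lysosomes and in cilium formation, had 0.0339, 0.0396 and 0.0378 in the labeled libraries (0.0371 ± 0.00293, n = 3) against 0 and 0.000601 in the unlabeled ones. Rab12, an endosome and lysosome Rab, had 0.0375, 0.0415 and 0.0419 (0.0403 ± 0.00244). Rab14, which acts between the Golgi and endosomes, had 0.0422, 0.0402 and 0.0385 (0.0403 ± 0.00187). The late endosome Rab, Rab7, had 0.0390, 0.0411 and 0.0412 (0.0404 ± 0.00125), and Rab6a, a Golgi Rab of retrograde transport and of exocytic carriers, had 0.0429, 0.0433 and 0.0387 (0.0416 ± 0.00254). Only Rab34 lay apart from its neighbour in the order by more than the SD of either gene, 0.00321 below Rab12 and lower in all 3 labeled libraries. Between these ends stood Rab11b (0.0435 ± 0.00535), Rab2a (0.0428 ± 0.000607), Rab31 (0.0423 ± 0.00143) and Rab5c (0.0420 ± 0.00160). No other pair of neighbours among the 14 differed beyond the spread of its replicates, so their order within the middle of the range cannot be read.

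**Figure D1:**
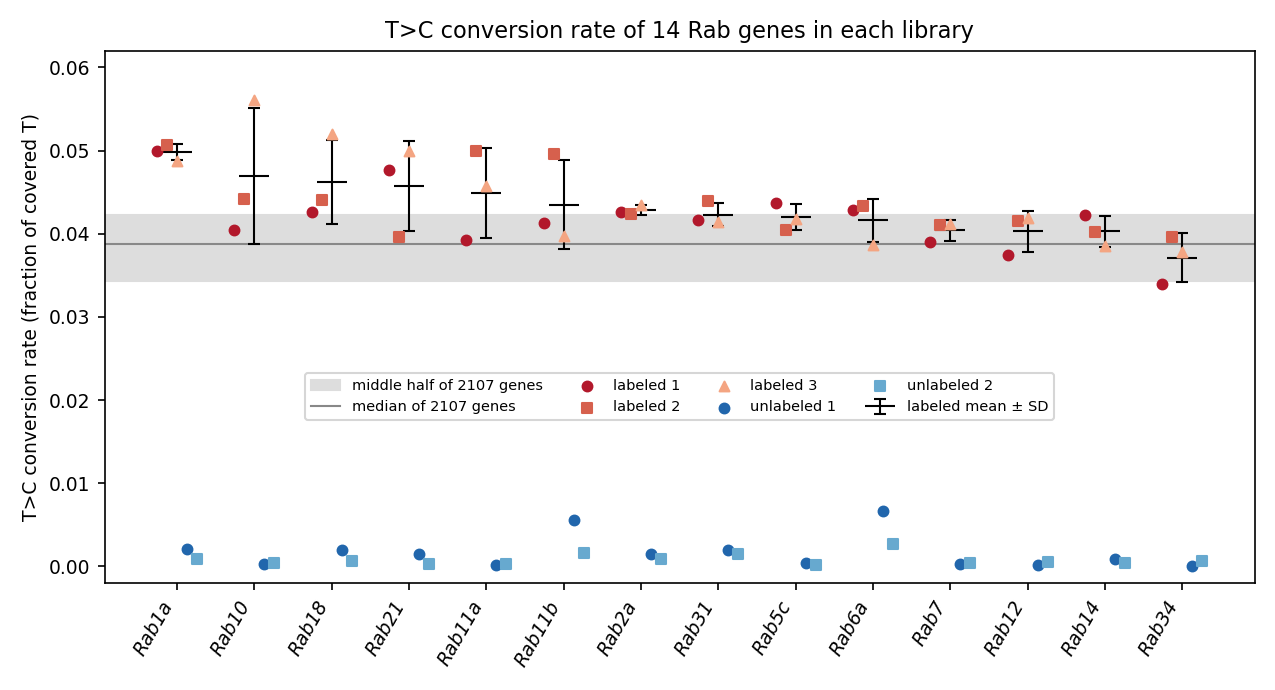
T>C conversion rate (y axis, fraction of covered T positions) of the 14 deeply covered Rab genes (1000 T positions or more in each library), ordered by the labeled mean. Points are libraries, black bars the labeled mean ± SD (n = 3), and the grey line and band the median and the middle 50% of the 2107 genes with the same coverage. The labeled points lie between 0.0339 and 0.0561 and no unlabeled point exceeds 0.00662.

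The median rate of the 14 members was 0.0426 (quartiles 0.0407 and 0.0455), beside 0.0388 (quartiles 0.0343 and 0.0422) over the 2107 genes. In labeled replicates 1, 2 and 3 taken alone the members' median was 0.0419, 0.0428 and 0.0418 and that of the genes 0.0378, 0.0390 and 0.0388. Of the 14, 13 lay above the gene median and 8 above the upper quartile of the genes, and 0 lay below the lower quartile. Rab34 was the 1 member below the median. These are descriptions, since the genes of a list are not replicates. The share of reads with at least 1 conversion gave a median of 57.5% for the members and 52.7% for the genes, with a range over the members from 45.9% in Rab5c to 68.1% in Rab1a. The T share of the interval moved with the rate. Its median was 33.3% in the 14 members and 30.8% in the 2107 genes, with the lowest T share in Rab5c (27.2%) and the highest in Rab21 (38.4%). Spearman's rho between rate and T share was 0.54 across the 14 members and 0.32 across the 2107 genes, whose points share the same 3 libraries. Whether base composition has a part in the members' higher median was not tested.

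**Figure D2:**
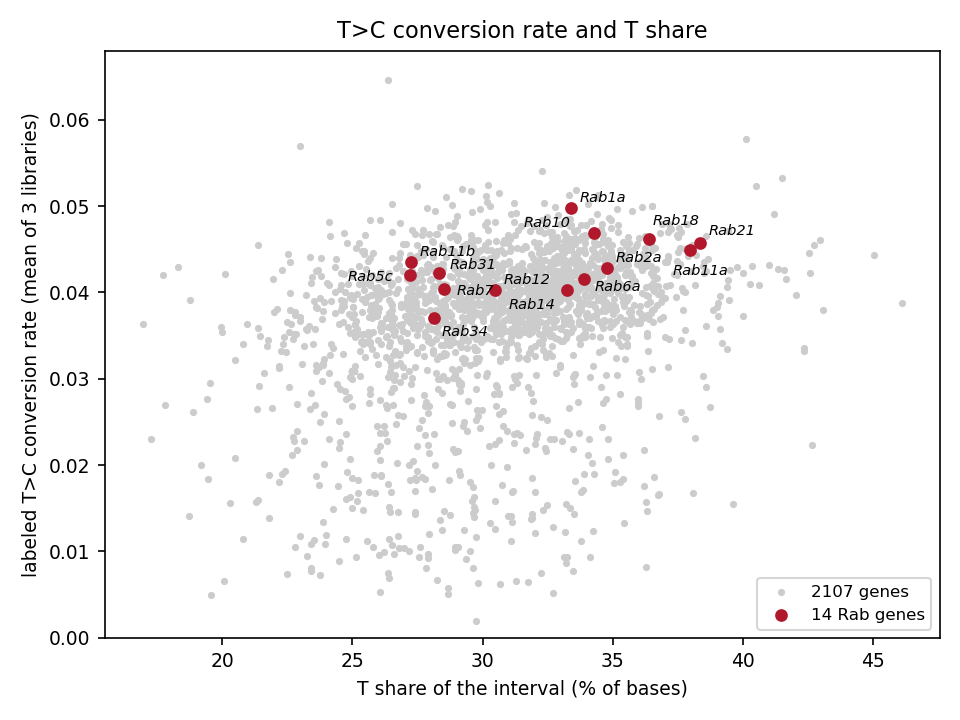
Labeled T>C conversion rate (y axis, mean of 3 libraries) against the T share of the interval (x axis, percent of bases) for the 2107 deeply covered genes (grey) and the 14 Rab genes (red). The Rab genes lie between 0.0371 and 0.0498, and those with the highest T share, Rab21, Rab11a and Rab18, lie between 0.0449 and 0.0462.

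Some members also showed conversions without S4U. Rab6a had a rate of 0.00662 in unlabeled replicate 1, 131 conversions over 19780 covered T positions, and of 0.00275 in replicate 2. Its mean was above that of 99.2% of the 2107 genes, whose median was 0.000510. Rab11b followed with 0.00561 and 0.00158, above 98.1% of the genes. In contrast, Rab11a had 0.000220 and 0.000268. With the mean unlabeled rate subtracted, Rab6a moved from the tenth to the thirteenth place of the 14, at 0.0369, and stood above 42.2% of the genes instead of 71.0%. Rab34, at 0.0368, then stood next to Rab6a and no longer lay apart from its neighbour. Rab11b moved from the sixth to the tenth place, at 0.0399. Rab1a, Rab10, Rab18, Rab21 and Rab11a remained the highest 5, between 0.0447 and 0.0484. Among members with fewer covered positions, Rab5b had 0.00524 and 0.00610 and Rab7b had 0.00295 and 0.00478 without S4U.

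A further 24 members had at least 100 but fewer than 1000 covered T positions in some library. Their median rate was 0.0374, beside 0.0383 in the 6183 genes of that class, and the median SD was 19.8% of the mean. The lowest rates were those of Rab40c (0.0252 ± 0.00428), a Rab with a SOCS box that recruits a ubiquitin ligase, Rab2b (0.0286 ± 0.0108) and Rab20 (0.0293 ± 0.0124). Rab40c was low in every labeled library, with 0.0216, 0.0299 and 0.0241. The highest were those of Rab28 (0.0474 ± 0.0101), a ciliary Rab, Rab24 (0.0469 ± 0.0123), an autophagy-related Rab, and Rab35 (0.0457 ± 0.0251), which acts in recycling to the plasma membrane. Rab35 rested on labeled replicate 3, where the rate was 0.0746 over 335 covered T positions, against 0.0298 and 0.0327 in the other two. Over all 38 members with at least 100 covered T positions, 24 were above the median of the 8290 genes, 11 above their upper quartile and 9 below their lower quartile, and the median was 0.0403 beside 0.0384. The members' excess over the gene median was thus smaller than among the deeply covered members, and the class of 24 had none. The last 9 members of the 47, Rab4a, Rab5a, Rab27a, Rab27b, Rab30, Rab36, Rab39b, Rab40b and Rab42, had 8 to 46 labeled reads each, and their rates between 0.0157 and 0.0479 are too uncertain to rank.

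Levels are given as CPM of counted reads, with the reads on 1 interval per gene as the library total. The deposited CPM was divided by a larger number of reads, between 7.58 and 28.9 times the counted reads depending on the library, so that the same member had very different deposited values. Rab6a had a deposited CPM of 85.8, 54.3 and 17.1 in the labeled replicates but 650.4, 640.2 and 494 CPM of counted reads. Over the 52 members with any read, the median labeled level was 2.99 as deposited CPM and 37.8 as CPM of counted reads. The libraries hold reads from the 3′ end of transcripts, so that a level was not divided by length unless stated.

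The members were led by Golgi and ER Rabs. Rab6a had the highest level, with 650.4, 640.2 and 494 CPM in labeled and 493 and 521 CPM in unlabeled replicates (labeled mean 595 ± 87.5, n = 3). Rab1a had 679, 463 and 555 CPM with S4U and 633 and 491 CPM without it (566 ± 108). The difference between both, 29.2 CPM, was within their spread, and Rab6a was the higher one in 1 of 3 labeled libraries. Rab2a, which acts in Golgi structure and traffic between the ER and Golgi, had 416, 463 and 429 CPM in labeled and 284 and 422 CPM in unlabeled replicates (436 ± 24.1). Rab10 had 405, 379.9 and 372 CPM against 373 and 365 CPM (385 ± 17.3) and was the steadiest of the leading members. Rab14 followed with 197, 366 and 338 CPM in labeled and 160.1 and 341 CPM in unlabeled replicates (300.3 ± 90.3). Its low values were those of the libraries numbered 1. The labeled means of Rab1a and Rab2a differed by more than the SD of either gene, with Rab1a higher in 2 of 3 labeled libraries and both at 463 CPM in replicate 2. Those of Rab2a and Rab10 also did, with Rab2a higher in all 3, although in unlabeled replicate 1 Rab2a lay below Rab10. The step from Rab10 to Rab14, 85.1 CPM and in the same order in all 3 labeled libraries, was within the SD of Rab14.

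The 3′ ends on which these levels rest are shown because the libraries are primed at the poly(A) tail. Each run is the last 30 bases of the gene's interval in GRCm39, 5′ to 3′ on the transcript strand, with T for U, and the poly(A) signal AATAAA or its variant ATTAAA in capitals where 1 of them starts within the last 50 bases. Each interval lies wholly in 1 annotated UTR of its gene. On the opposite strand, those of Rab1a, Rab10 and Rab34 also overlap Cep68, Rab10os and Gm73750. They are for Rab1a (chr11:20176827-20176856, plus strand), Rab6a (chr7:100290446-100290475, plus), Rab2a (chr4:8607673-8607702, plus), Rab10 (chr12:3297428-3297457, minus), Rab5c (chr11:100605829-100605858, minus) and Rab34 (chr11:78082990-78083019, plus).
Rab1a: cAATAAAatcatagtttactttgtattata
Rab6a: tcctgaAATAAAtatcaattcaatatggca
Rab2a: gttatagcagtgcaaAATAAActcctatgt
Rab10: tgttcatataaaaacaaacctgatttccaa
Rab5c: acATTAAAggatatgcaacctgtatttgaa
Rab34: tatgcATTAAAgtccattattagcattttc

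Of the 14 deeply covered members, 10 carried AATAAA and 3 ATTAAA in this window, and Rab10 neither. Among the 2107 genes the shares were 70.9%, 15.2% and 13.9%. Only the transcript strand was searched, AATAAA was taken first where both occurred, and a match is a run of letters and not a measured cleavage site. Over the 47 members with a covered T in every library, 29 had AATAAA, 10 ATTAAA and 8 neither, beside 66.8%, 15.3% and 17.9% of the 11177 genes searched. The letters ATTTA, the core of AU-rich elements, occurred at least once on the transcript strand in the intervals of 13 of the 14 members and of 79.4% of the 2107 genes, with a median of 1.60 and 1.70 per kb. Rab18 had 15 of them in 2951 bases, and 95.3% of intervals within 20% of that length held at least 1. Rab34, with an interval of 352 bases, had none.

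By location, the 10 members of the ER and Golgi held 39.5% of the summed member level, the 11 of late endosomes, lysosomes and related organelles 16.9%, the 9 of recycling endosomes 15.2%, the 7 of early endosomes 12.1%, the 12 of exocytosis and delivery to the plasma membrane 10.8%, the 3 ciliary members 4.28% and the other 7 members 1.23%. The first 5 members alone held 43.9% and the first 10 held 67.5%. Each endosomal class was carried by few genes. Among the early endosome Rabs, Rab5c had 243 ± 55.8 CPM, Rab31 200.5 ± 47.4 CPM and Rab21 93.5 ± 10.9 CPM, while Rab5a had 2 to 11 reads per library (5.04 ± 1.68 CPM) and Rab5b 41.8 ± 11.9 CPM. The interval of Rab5b lies to 73.5% in an annotated UTR of its own and also overlaps Gm6336 on the same strand. Those of Rab18, Rab4b and Rab43 overlap Gm50081, Gm21983 and Gm45140 on the same strand, so that reads of these pairs may not be separable. Among recycling Rabs, Rab14, Rab11b (203 ± 77.1 CPM) and Rab11a (165 ± 68.9 CPM) led, and Rab4a had 15.3 ± 4.84 CPM. Among late endosome and lysosome Rabs, Rab7 (285 ± 13.4 CPM) and Rab12 (242 ± 41.6 CPM) led, and among exocytic Rabs, Rab10 was followed by Rab8a (62.4 ± 26.2 CPM), with Rab13, which acts in delivery to cell junctions, at 24.7 ± 5.73 CPM and Rab3a, Rab3d, Rab27a and Rab27b, the Rabs of regulated secretion, between 2.65 and 29.9 CPM. The ciliary Rabs were Rab34 (123 ± 25.8 CPM), Rab28 (62.3 ± 3.54 CPM) and Rab23 (37.6 ± 5.33 CPM). Fewer cells of a type and less RNA per cell cannot be told apart in these bulk samples. Divided by interval length the order changed, to 364 CPM per kb for Rab2a, 348 for Rab34, 305 for Rab6a, 281 for Rab1a and 236 for Rab29. Rab34 and Rab29 have intervals of 352 and 307 bases.

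**Figure D3:**
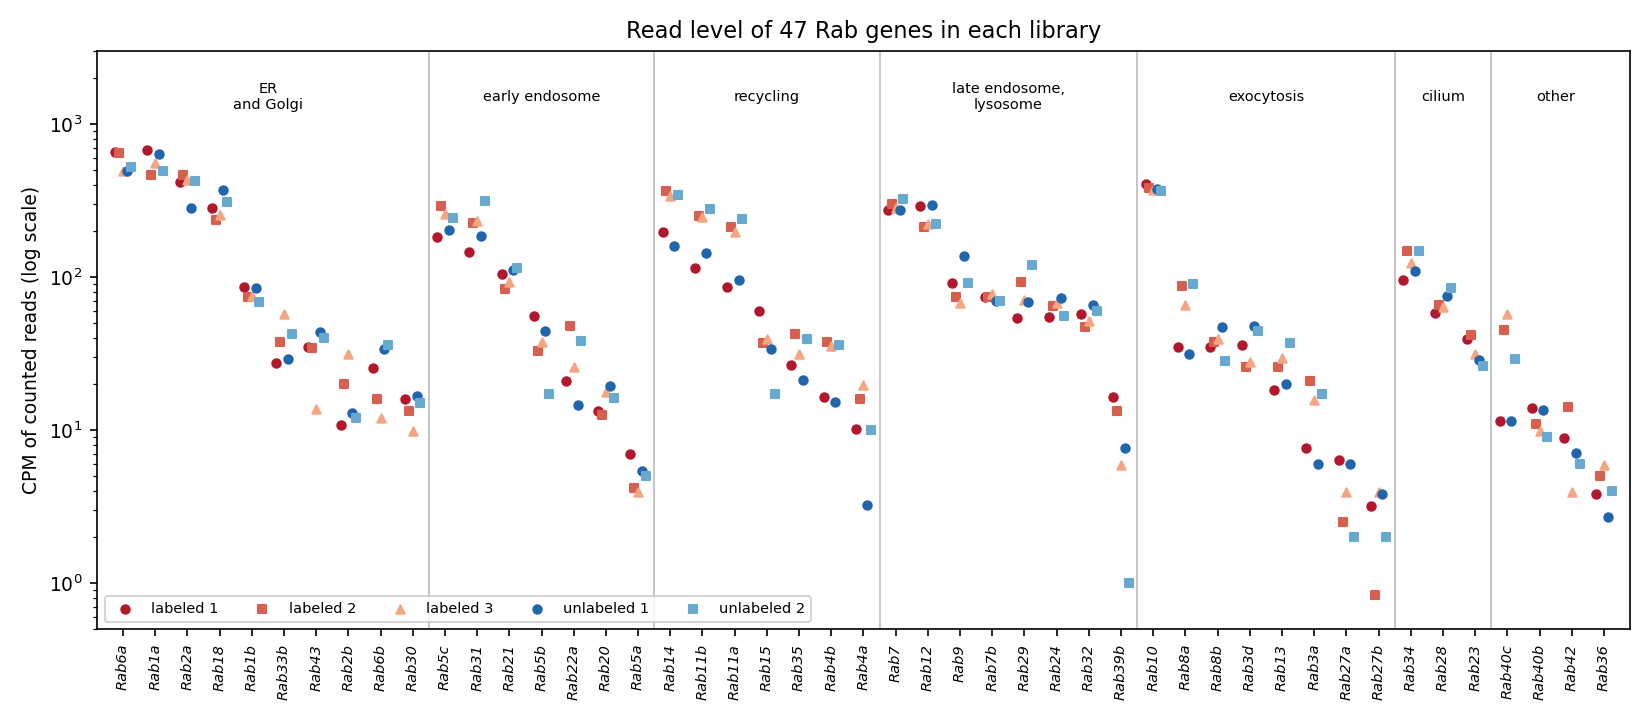
Level (y axis, CPM of counted reads, log scale) in each library of the 47 Rab genes with reads in every library, grouped by the compartment in which the protein acts and ordered by labeled mean. Red points are the 3 labeled and blue points the 2 unlabeled libraries. Rab6a, Rab1a, Rab2a and Rab10 lie highest, and the circles, the libraries numbered 1, lie below the other points in Rab14, Rab11b, Rab11a and Rab8a.

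Several members differed between the libraries numbered 1 and the other three. The labels do not say what the replicate number stands for. Rab11a had 85.7 CPM in labeled replicate 1 and 96.0 in unlabeled replicate 1, against 213, 196 and 238 CPM in the other libraries, which is 2.37 times as much on average. The same ratio was 3.85 for Rab40c, 2.64 for Rab3a, 2.01 for Rab11b, 1.95 for Rab14, 2.43 for Rab8a, which acts in exocytosis and cilium growth, 2.30 for Rab4b and 2.09 for Rab22a, both endosomal. It was 1.62 for Rab33b, a Golgi Rab. In all, 17 of the 43 members with enough reads for a test (39.5%) had both libraries numbered 1 below the other three, and 6 (14.0%) had both above, among them Rab1a, Rab1b, Rab12 and Rab5b. Among the 9807 genes with enough reads these shares were 22.7% and 30%. This pattern was seen in the data first and was not tested. In Rab11a, Rab11b, Rab14 and Rab8a labeled and unlabeled values overlapped.

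Paralogs, members with the same number in their symbol, could be compared for 1 pair with at least 1000 covered T positions, Rab11a and Rab11b. Rab11a was higher by 0.00141 ± 0.00413 (SD of the difference, n = 3 libraries) and in 2 of 3 libraries (exact paired permutation test, two-sided, p = 0.750). With at least 100 covered T positions there were 8 pairs. The first-named gene had the higher rate in all 3 labeled libraries for Rab1a over Rab1b (0.0498 and 0.0409), Rab2a over Rab2b (0.0428 and 0.0286), Rab6a over Rab6b (0.0416 and 0.0310) and Rab7 over Rab7b (0.0404 and 0.0367), and the lower in all 3 for Rab8a against Rab8b (0.0321 and 0.0390). With the unlabeled rates subtracted, the difference was 0.00476 for Rab11a over Rab11b, 0.00597 in place of 0.0107 for Rab6a over Rab6b and 0.00720 in place of 0.00369 for Rab7 over Rab7b. For the 5 pairs with the same order in all 3 libraries the exact p was 0.25, the smallest that 3 libraries allow, and 0.40 after adjustment over the 8 pairs, so none can pass a threshold. In 4 of these pairs the levels differed more than the rates. Rab6a had 33.6 times the level of Rab6b, a mainly neuronal paralog, with ratios from 14.4 to 41.7 over the 5 libraries. Rab2a had 20.9 times that of Rab2b (13.6 to 38.6), Rab1a 7.24 times that of Rab1b (6.28 to 7.93) and Rab7 3.78 times that of Rab7b (3.67 to 4.67). Rab8a had 1.67 times the level of Rab8b, but the ratio ran from 0.667 to 3.18 over the libraries, so that its direction turned. In contrast, Rab11a had 0.810 times the level of Rab11b, with 0.673 to 0.856 over the libraries. These ratios are of reads per 3′ end, not per length.

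Several members had a shorter interval nested in the longer one, with the same 5′ end. For Rab11b the outer interval covers 5184 bases of 3′ UTR and the inner one its first 1071 bases. The inner interval held 96 of 180 reads in labeled replicate 1 (53.3%, exact 95% interval 45.8 to 60.8%), 235 of 297 in replicate 2 (79.1%, 74.1 to 83.6%) and 80 of 125 in replicate 3 (64.0%, 54.9 to 72.4%). Without S4U it held 112 of 263 reads in replicate 1 (42.6%, 36.5 to 48.8%) and 201 of 277 in replicate 2 (72.6%, 66.9 to 77.7%). The share was lowest in both libraries numbered 1 and did not separate labeled from unlabeled libraries. The T>C rate of the inner interval was 0.0426, 0.0499 and 0.0445 in the labeled libraries. That of the remaining bases was 0.0392, 0.0481 and 0.0276, over 1097, 977 and 724 covered T positions. It was lower in each, by little in replicates 1 and 2, and the difference was not tested. Without S4U the rate of the remaining bases was 0.00885 against 0.00169 in the inner interval in replicate 1, but 0.00159 against 0.00158 in replicate 2. The end of the outer interval (chr17:33961458-33961487, minus strand) carries AATAAA, and neither signal starts in the last 50 bases of the inner one (chr17:33965571-33965600, minus strand).
Rab11b outer end: agccAATAAAccctttccttctcaacttgc
Rab11b inner end: atgtataagccacttctgtacagaaaccta

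Rab23, a ciliary Rab that restrains hedgehog signaling, had 43.5% of its reads in the inner of its nested intervals in labeled replicate 1, 30 of 50 reads in replicate 2 and 68.8% in replicate 3, against 49.1% and 61.5% without S4U, with intervals that overlap. Rab5b had between 82.4% and 89.7% in the inner interval in all 5 libraries. Its conversions without S4U lay in the remaining bases, whose rate was 0.0336 and 0.0426 without S4U (149 and 47 covered T positions) and 0.0476, 0.0316 and 0.0476 with it. The inner interval of Rab5b had a rate of 0 in both unlabeled libraries and of 0.0371, 0.0421 and 0.0348 in the labeled ones. For Rab2a, the tables hold a separate interval of 12629 bases upstream, chr4:8589572-8602200, with 13 to 63 reads per library, whose rate pooled over the labeled libraries was 0.0327.

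**Figure D4:**
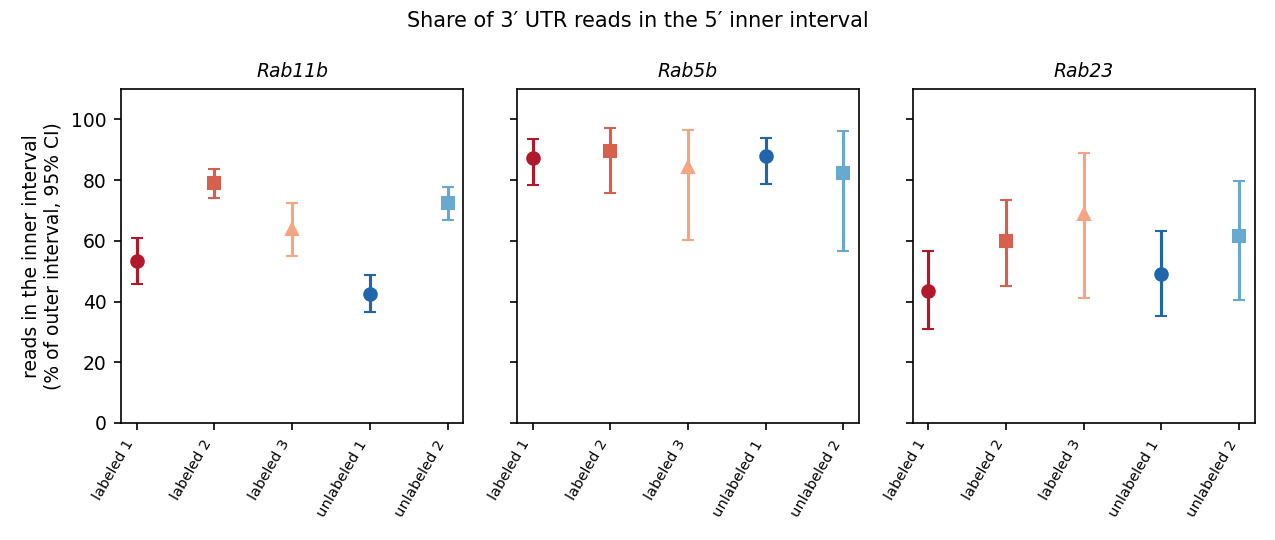
Share of the reads of the outer 3′ UTR interval that fell in the inner interval with the same 5′ end (y axis, percent, with exact 95% intervals for counting error only), for each library of Rab11b, Rab5b and Rab23. In Rab11b the libraries numbered 1 lie at 53.3% and 42.6% and the others between 64.0% and 79.1%.

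Reads were compared between labeled and unlabeled libraries, which asks whether 12 h of S4U goes along with a changed transcript level. Of the 59 members, 43 passed the filter on low counts, and 0 were called higher or lower by edgeR (quasi-likelihood fit, Benjamini-Hochberg adjusted p), as for all 9807 genes tested, of which 0% were called in each direction. DESeq2 called 0 members, beside 13 higher and 7 lower of all 9807 genes, and 0 members had an unadjusted p below 0.05 in either tool. By edgeR, 2.84% of all genes had an unadjusted p below 0.05 with more reads in the labeled libraries and 3.12% with fewer. The members' log2 fold changes had a median of 0.10, beside 0.02 over all genes, with 29 above and 14 below 0. The split was 23 and 20, with a median of 0.02, when libraries were scaled by size alone. The median was -0.16 without unlabeled replicate 1 (19 above and 24 below 0), 0.23 without unlabeled replicate 2 and 0.02 without labeled replicate 2, so its sign turned on 1 library. For the 14 deeply covered members the log2 fold change lay between -0.33 and 0.37, with standard errors (SE) from 0.22 to 0.54. These p-values measure the spread between libraries, which the labels do not tie to separate cultures. The methods name 3 CF preparations and unlabeled cells incubated in parallel, without saying which libraries share a preparation. The main fit did not pair libraries. With the replicate number as a block, edgeR called 2 members higher, Rab15 and Rab39b. That fit also called 528 higher and 618 lower of all 9807 genes, on 1 residual degree of freedom per gene.

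The largest rise in value, which did not pass the test, was that of Rab39b, grouped here with the late endosome and lysosome Rabs. Its levels were 16.5, 13.4 and 5.93 CPM in labeled and 7.60 and 1.00 CPM in unlabeled libraries (log2 fold change 1.47, SE 0.74, edgeR adjusted p = 0.908). The rise rests on 1 to 26 reads per library and the groups overlap. Rab4a, a Rab of fast recycling, had 10.2, 15.9 and 19.8 CPM against 3.26 and 10 CPM (1.30, SE 0.66), with 6 and 10 reads in the unlabeled libraries. Rab40c had 11.4, 45.2 and 57.3 CPM against 11.4 and 29.1 CPM (0.96, SE 0.76), and here the low values are again those of the libraries numbered 1. Rab15, an endosomal Rab, had the smallest p of the members. Its levels were 59.6, 36.8 and 39.5 CPM against 33.6 and 17.1 CPM (0.91, SE 0.40, edgeR adjusted p = 0.859). With the replicate number as a block, edgeR called Rab15 (0.98) and Rab39b (1.68) higher, on 1 residual degree of freedom per gene. The interval of Rab15 overlaps Fntb, a subunit of the farnesyl transferase, on the opposite strand. How the counting treated strand is not given in the sources used here.

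The largest falls in value, none of which passed the test, were those of Rab6b, Rab3d and Rab9, with Rab43 level with Rab9 after rounding. Rab6b had 25.4, 15.9 and 11.9 CPM in labeled and 33.6 and 36.1 CPM in unlabeled libraries (log2 fold change -0.85, SE 0.38, edgeR adjusted p = 0.868). Rab3d, a Rab of secretory granules, had 36.2, 25.9 and 27.7 CPM against 47.7 and 44.2 CPM (-0.53, SE 0.30). Rab9, which returns mannose 6-phosphate receptors from late endosomes to the Golgi, had 90.7, 74.5 and 67.2 CPM against 137 and 91.4 CPM (-0.47, SE 0.28). Rab43, a Golgi Rab, had 34.9, 34.3 and 13.8 CPM against 43.4 and 40.2 CPM (-0.47, SE 0.40). The labeled libraries of these 4 members lie below both unlabeled ones. In all, 8 of the 43 members were so, with Rab18, Rab21, Rab28 and Rab32, beside 13.1% of all genes. The 4 members with each labeled library above both unlabeled ones were Rab4a, Rab7b, Rab15 and Rab23, beside 8.20% of all genes. With unlabeled replicate 1 left out, the log2 fold change was 0.57 for Rab4a, 3.53 for Rab39b, 0.35 for Rab40c, 1.44 for Rab15 and -0.21 for Rab9. With unlabeled replicate 2 left out it was 2.26 for Rab4a, 0.84 for Rab39b, 1.80 for Rab40c and 0.56 for Rab15. These values therefore turn on single libraries. Rab6b and Rab3d kept values between -1.19 and -0.43 whichever library was left out.

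**Figure D5:**
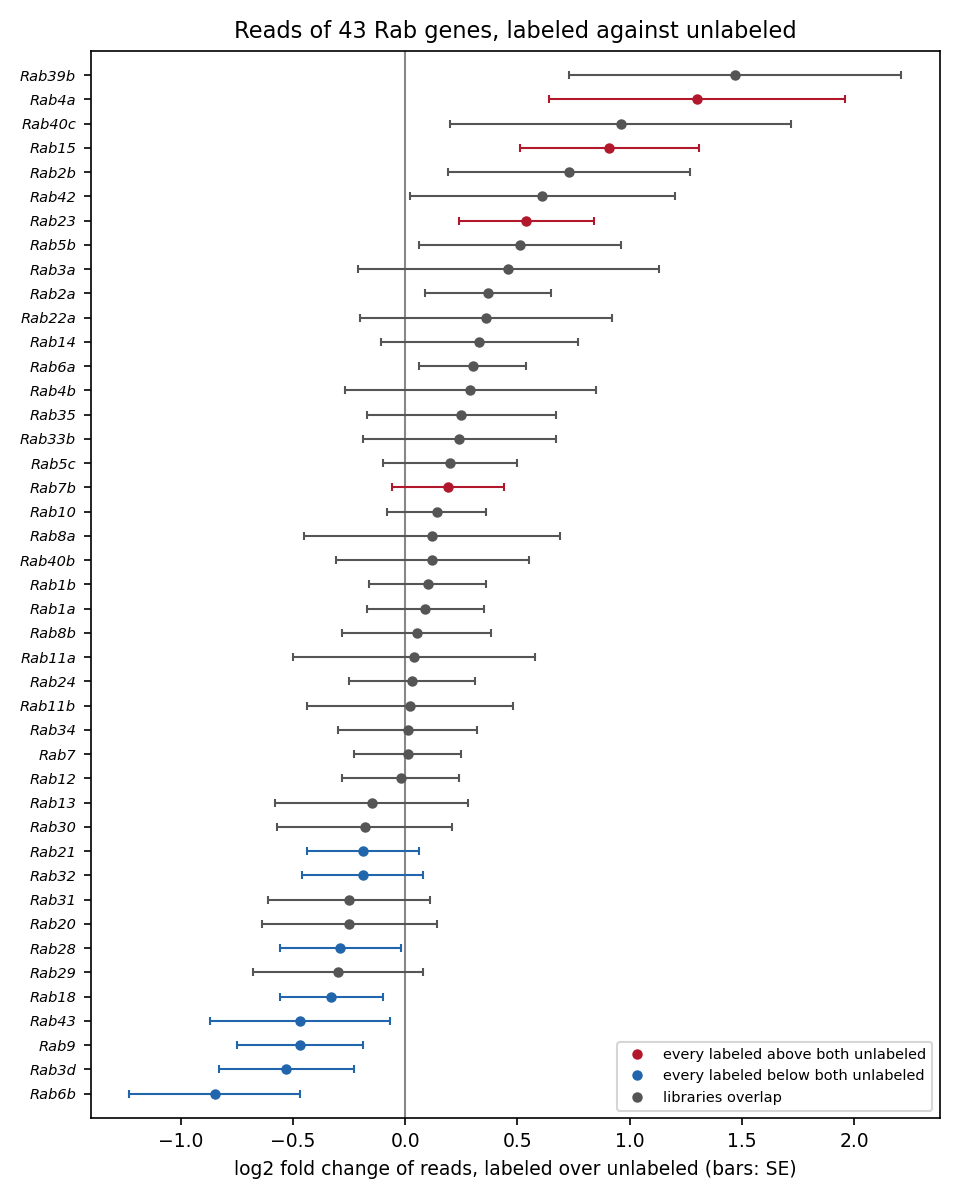
Log2 fold change of reads, labeled over unlabeled libraries (x axis), for the 43 Rab genes with enough reads, ordered by value. Bars are the SE derived from the fold change and edgeR's F statistic. Red marks the 4 genes whose labeled libraries all lie above both unlabeled ones and blue the 8 whose labeled libraries all lie below. None passed the adjusted threshold.

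The proteins that load, switch off, extract and read the Rab proteins were followed as a list of 123 genes found in the tables. Of the 105 with a covered T in every library, 99 were raised and 0 lowered in T>C rate, beside the 95.2% of all genes. Only 7 were deeply covered, with a median rate of 0.0397. The highest were Vps35, the retromer subunit that works with Rab7 (0.0445 ± 0.00317, n = 3), Dennd5a (0.0432 ± 0.000241) and Ankrd27 (0.0416 ± 0.00157), both exchange factors. The lowest were Golga2, a Golgi tether bound by Rab1 (0.0343 ± 0.0101), Gdi2, a GDP dissociation inhibitor (0.0388 ± 0.00431), and Bicd2, the dynein adaptor on Rab6 vesicles (0.0390 ± 0.00259). Gdi2 had 185, 309.6 and 241 CPM in labeled and 201 and 308 CPM in unlabeled libraries. Where at least 100 T positions were covered, the median rate was 0.0388 for the 5 GDI, escort and prenylation genes, 0.0380 for 24 GAP, 0.0386 for 25 effectors and 0.0420 for 20 GEF.

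In read counts, 0 of the 93 regulators tested were called by edgeR's adjusted test or by DESeq2, and 1 had an unadjusted edgeR p below 0.05 with more and 7 with fewer reads in the labeled libraries. Over all 9807 genes DESeq2 called 13 higher and 7 lower, and the unadjusted edgeR shares were 2.84% and 3.12%. Of the 93, 38 had a log2 fold change above 0 and the median was -0.11, which was -0.25 without labeled replicate 1 and -0.06 without labeled replicate 2. By group, 7 of 29 GAP, 14 of 31 effectors, 12 of 26 GEF and 5 of 7 GDI, escort and prenylation genes were above 0. The 1 gene with more reads, named after its values were seen, was Rab3ip (Rabin8), the exchange factor of Rab8, with 88.8, 74.5 and 61.3 CPM in labeled and 36.4 and 27.1 CPM in unlabeled libraries (log2 fold change 1.31, SE 0.30, edgeR adjusted p = 0.542). The 7 genes with fewer reads, likewise named after their values were seen, were the effectors Appl2, Sytl2, Osbpl1a and Vps35, the exchange factor Rab3il1 and the GAP genes Tbc1d2b and Rabgap1l, with log2 fold changes from -2.16 to -0.69 and edgeR adjusted p from 0.542 to 0.779. Appl2, an endosomal adaptor bound by Rab5, had 12.1, 9.21 and 3.95 CPM in labeled and 29.3 and 57.2 CPM in unlabeled libraries (-2.16, SE 0.50). Sytl2, a Rab27 effector, had 12.1, 10 and 9.88 CPM against 33.6 and 29.1 CPM (-1.46, SE 0.34). Rab3il1, the paralog of Rab3ip, had 3.81, 10.9 and 11.9 CPM against 18.4 and 34.1 CPM (-1.57, SE 0.60), the opposite direction to Rab3ip. In none of these 8 genes do the groups overlap, but they were picked for their small p. Over all 9807 genes, each labeled library lay above both unlabeled ones in 8.20% and below both in 13.1%. With the replicate number as a block, edgeR called 16 regulators, the 8 genes named here among them. That fit called 528 higher and 618 lower of all genes, on 1 residual degree of freedom per gene. The substrates of Rab3ip, Rab8a and Rab8b, had log2 fold changes of 0.12 (SE 0.57) and 0.05 (SE 0.33).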

How the data were processed

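The authors moved the unique molecular identifiers into the read names, processed the reads of 3′ end (QuantSeq FWD) libraries with SLAM-DUNK 0.4.3 on mm39, used umi-tools to drop duplicates and deposited 1 table per library over 3′ UTR intervals. Per interval, the authors deposited raw counts: all reads, converted reads, covered T positions and conversions. They also deposited the rate as a fraction. The deposited CPM refers to a read number larger than the counted reads. The other columns the authors deposited give positions, interval length and T content.

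Each table had 97442 rows with 40428 distinct intervals, and repeated rows were used once. Coordinates are counted from 1. All 40380 intervals placed on chromosomes, the 105 member intervals among them, had the T content of their GRCm39 sequence, whose annotation gave exons and overlapping genes. Members, lists and tests were chosen with earlier results of these data known. All members were named, in full at 1000 or more covered T positions per library and by range or count otherwise. The 5 highest and 5 lowest T>C rates, the 5 highest levels and the 3 largest rises and falls of reads were given per library. Of the regulators, the 3 highest and 3 lowest rates were named. Regulators were matched by symbol.

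For T>C rates a two-sided likelihood-ratio test under the beta-binomial model, with 1 shared overdispersion, was run wherever all libraries covered a T. For reads, 1 interval per gene entered edgeR 4.0.16 (quasi-likelihood, TMM, filterByExpr, Benjamini-Hochberg over all genes). The SE of an edgeR log2 fold change is its absolute value divided by the square root of the F statistic. Tests were tried on simulated data. Shares carry exact (Clopper-Pearson) 95% intervals, and a count of 0 allows up to 3 counts. Alternatives used DESeq2 1.42.0, limma 3.58.1 on log odds (pseudocount 0.5), other scalings, filters and coverage limits, the replicate number as a block and each library left out. Scripts ran in Python 3.11.15 (scipy 1.17.1, numpy 2.4.6, numba 0.67.0, pandas 2.3.3; plots with matplotlib 3.10.9) and R 4.3.3.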

Additional observations from a re-analysis of the deposited data

How the results depend on the processing

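Raising the coverage limit from 1 to 1000 covered T positions cut the raised members from 47 to 14 and the raised regulators from 99 to 7, since fewer genes were tested, and all tested ones were raised. Without 1 library at a time, 44 to 47 members and 94 to 99 regulators were raised. The share of all genes raised in these runs and at the higher coverage limits was not counted. The members lost were Rab27a, Rab27b, Rab4a and Rab39b in different runs, and Rab19, testable without labeled replicate 3, was not raised. The median T>C rate of 0.0426 was 0.0394 at 1 and 0.0403 at 100 covered T positions (all genes 0.0379 and 0.0384), 0.0411 after subtraction of the unlabeled rate (0.0381), and 0.0420 to 0.0428 without 1 labeled library. As a share of reads with a conversion it was 0.575 (0.527). The median deposited CPM of 2.99 was 37.8 as CPM of counted reads, 6.03 over the 34 members with at least 10 reads in every library, and 2.34 to 3.83 without 1 labeled library. The difference between Rab11a and Rab11b reversed to -0.000875 without labeled replicate 3 and was -0.000875 to 0.00315 over the libraries left out. No member or regulator was called in read counts under DESeq2, other scalings, no filter, summed intervals or with any library left out; where 1 unlabeled library remained, it was assumed to vary like the labeled ones.

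With the replicate number as a block, edgeR called 2 members, Rab15 (log2 fold change 0.98) and Rab39b (1.68), 16 regulators, and 528 higher and 618 lower of all 9807 genes, on 1 residual degree of freedom per gene. The correlation of deviations from group means was 0.784 for labeled with unlabeled replicate 1, 0.638 for replicate 2 and 0.482 for labeled replicate 3 with unlabeled replicate 2. With 2 unlabeled libraries these are 1 contrast seen from either side, and the labels do not say that a number marks a shared preparation. The block for limma's T>C log odds gave 47 raised members and 102 regulators, against 46 and 99 without it. The share of all genes raised in these fits was not counted.

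Depth limits what can be read. Labeled replicate 3 had 506045 counted reads, 14 of the 47 tested members had 1000 covered T positions in each library, and 16 members had too few reads for a test of counts.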
